A study of Mus musculus with 27 samples.

Results

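The genes described here were the expressed long intergenic noncoding RNAs (lincRNAs) of mouse splenic B cells, transcripts that lie mainly between protein-coding genes and have no long reading frame. A gene was selected on its mean raw read count: it had to be annotated as lincRNA in the deposited count table and to have a mean of at least 100 counts over the 20 libraries of the first experiment, and the named small nucleolar RNA hosts (Snhg genes, Gas5 and E330020D12Rik) were left out. Of 54532 genes counted, 5559 were lincRNAs, 89 of these reached the mean, and 86 remained once Snhg12, Snhg6 and Snhg20 were removed. The choice fixed their mean level, so that level is given only as a description. The members just inside the limit were Gm20342 (106.6 counts), Gm19710 (105.8) and Gm43660 (105.2), and the lincRNAs just outside it were Gm8066 (97.7), Gm43597 (96.9) and Gm20045 (95.85). All 86 passed the filter on low counts in every comparison. Without its highest group, 76 of the 86 still had a mean of at least 100 and 10 did not. These 10 were selected through 1 group, so their differences that involve it are given as a description, with no p. That group was unstimulated cells for AW112010, Gm26541, 4732487G21Rik and Gm20342, LPS+DSF for A930007I19Rik and Gm19710, IL-4+anti-CD40+DSF for Gm26532, Gm39321 and 4932422M17Rik, and IL-4+anti-CD40 for Gm43660. Others, such as Lncpint, reached the limit only through both DSF groups together, and the DSF values of Lncpint are also given with no p.

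The B cells came from spleens of wild-type C57BL/6 mice by negative selection and were cultured for 3 h. In the first experiment 5 groups of 4 libraries were sequenced: unstimulated cells, cells given LPS (a bacterial lipopolysaccharide that signals through TLR4), cells given IL-4+anti-CD40 (a cytokine and an antibody that stand in for T cell help), and each stimulus with 1 µM disulfiram (DSF), a drug for alcohol dependence that reacts with protein thiols. The treatment protocol names the groups without a drug with DMSO. The second experiment had 1 library for each of 7 conditions, the same 5 plus each stimulus with 1 µM ibrutinib, an inhibitor of the kinase Btk. The study describes its RNA-seq samples as biologically independent, but ages and sexes of the mice, and whether libraries of a group came from separate animals or cultures, were not given in the labels. The p-values below measure the spread between these libraries, part of which may be technical.

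Long noncoding RNAs work in several ways. Some build or regulate nuclear structures, as Malat1 does in nuclear speckles, Neat1 in paraspeckles and Xist on the inactive X chromosome. Others are cut by Drosha and Dicer into microRNAs, which pair with messenger RNAs mainly through the seed (bases 2 to 8) and lower their output. In B cells the microRNAs cut from Mir17hg and Mir155hg are known for their roles in survival and in the germinal centre response.

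Libraries of the first experiment held 17804851 to 23632992 counts, and those of the second held 16049295 to 24619776. The 4 unstimulated libraries fell into pairs: across 11123 genes the log levels of replicates 1 and 2 correlated at 0.9964 and those of replicates 3 and 4 at 0.9946, but those of libraries from different pairs at 0.9398 to 0.9407, against 0.9794 to 0.9961 within the other groups. The IL-4+anti-CD40 libraries split in the same way, but less. Replicates 1 and 2 correlated at 0.9952, replicates 3 and 4 at 0.9938, and libraries across these pairs at 0.9794 to 0.989. DSF effects on single members under IL-4+anti-CD40 are given against all 4 of these libraries. B cell markers summed to 5990, 5900, 10200 and 9950 CPM (normalised read counts relative to library size, scaled by the trimmed mean of M-values, TMM, over the 20 libraries) in unstimulated replicates 1 to 4, and to 3600 to 8740 CPM in the other groups. Neutrophil markers summed to 32.3, 30.7, 11.3 and 14.4 CPM in the unstimulated libraries and 6.58 to 13.3 CPM elsewhere, and erythroid markers to 3.09, 2.35, 13.7 and 15.5 CPM against 1.28 to 3.4 CPM. Myeloid markers summed to 345 to 842 CPM, T cell markers to 4.47 to 11.9 CPM, NK cell markers to 0.588 to 3.35 CPM and plasma cell markers to 573 to 2280 CPM over the 20 libraries. The neutrophil gene Ly6g was at 0 in all IL-4+anti-CD40+DSF libraries and the NK cell gene Ncr1 in all LPS libraries. Their part in the results was not tested. Comparisons with unstimulated cells are therefore also given against each pair of unstimulated libraries. This was done for the members described whose call, direction or size (log2 fold change, by over 1.5 times) rested on the pair.

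The microRNA hosts were the members whose sequence tells most about what they make, so their products are shown first. RefSeq (GRCm38.p6) places 22 mature microRNAs on the same strand inside 6 members, and 32 inside or within 500 bases of 7 members. The members were Mir17hg, Mir155hg, Mir142hg, Ftx, 6720427I07Rik, E130102H24Rik and Gm26532. This search, and that of promoters below, left out a single chromosome. One mature product is printed for most microRNA genes, 5′ to 3′, with the seed in capitals:
mmu-miR-17-5p (Mir17hg): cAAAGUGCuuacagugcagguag
mmu-miR-20a-5p (Mir17hg): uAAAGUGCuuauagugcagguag
mmu-miR-18a-5p (Mir17hg): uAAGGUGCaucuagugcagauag
mmu-miR-19a-3p (Mir17hg): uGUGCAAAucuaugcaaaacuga
mmu-miR-19b-3p (Mir17hg): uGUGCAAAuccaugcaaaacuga
mmu-miR-92a-3p (Mir17hg): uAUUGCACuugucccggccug
mmu-miR-155-5p (Mir155hg): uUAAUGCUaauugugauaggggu
mmu-miR-142a-3p (Mir142hg): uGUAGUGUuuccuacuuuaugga
mmu-let-7d-5p (6720427I07Rik): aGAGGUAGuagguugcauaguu
mmu-let-7f-5p (beside 6720427I07Rik): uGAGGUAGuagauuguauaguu
mmu-let-7a-5p (beside 6720427I07Rik): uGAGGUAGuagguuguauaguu
mmu-miR-101a-3p (E130102H24Rik): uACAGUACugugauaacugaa
mmu-miR-23a-3p (beside Gm26532): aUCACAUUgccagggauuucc
mmu-miR-27a-3p (beside Gm26532): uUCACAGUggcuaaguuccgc
mmu-miR-24-3p (beside Gm26532): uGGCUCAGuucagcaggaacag
Of 27 seeds, 4 were shared: AAAGUGC by miR-17-5p and miR-20a-5p, GUGCAAA by miR-19a-3p and miR-19b-3p, GAGGUAG by the 3 let-7 products, and UAUACAA by a pair of let-7 products from the other arm. The libraries were made from poly-A RNA, so the values below are of host transcripts, and the mature microRNAs were not measured.

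Promoters (250 bases before to 50 after the start, RefSeq, GRCm38.p6) were found for 44 members, and for 31 of these the start lay within 250 bases of the deposited start. These 31 were searched on both strands for 10 motifs, and a match is only a match of letters. The E-box CACGTG was in 5 of the 31 (16.1%, against 7.15% of all 32851 promoters) and the ETS core TTCCGG in 8 (25.8% against 14.9%). The STAT6 motif (TTC and GAA set 4 bases apart) was in 4 (12.9% against 6.95%), the STAT spacing TTCNNNGAA in 3 (9.68% against 8.3%), and the cAMP element TGACGTCA in 2 (6.45% against 1.79%). The AP-1 motif TGANTCA (7.81% of all promoters), the heat shock motif GAANNTTC (7.86%), the antioxidant element TGACNNNGC (12.4%) and the TATA box TATAAA (13.6%) were each in 3 of the 31 (9.68%). The NF-kB motif was in 1 (3.23%, against 4.51%), that of AW112010. STAT6 and STAT matches can share bases. A pair of promoters is printed because these members differed between the stimuli and in their DSF effects in the first experiment, as described below. Each is given 5′ to 3′ on the gene's strand with matches in capitals (STAT6, heat shock and STAT for Gm19951, NF-kB for AW112010):
Gm19951, chr12:99642846-99643145, plus strand: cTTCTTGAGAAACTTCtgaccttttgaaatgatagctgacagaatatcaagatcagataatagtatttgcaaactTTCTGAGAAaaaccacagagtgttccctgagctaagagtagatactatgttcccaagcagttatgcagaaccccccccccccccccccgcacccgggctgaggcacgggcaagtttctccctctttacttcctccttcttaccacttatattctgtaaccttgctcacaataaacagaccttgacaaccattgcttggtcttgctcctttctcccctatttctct
AW112010, chr19:11050517-11050816, minus strand: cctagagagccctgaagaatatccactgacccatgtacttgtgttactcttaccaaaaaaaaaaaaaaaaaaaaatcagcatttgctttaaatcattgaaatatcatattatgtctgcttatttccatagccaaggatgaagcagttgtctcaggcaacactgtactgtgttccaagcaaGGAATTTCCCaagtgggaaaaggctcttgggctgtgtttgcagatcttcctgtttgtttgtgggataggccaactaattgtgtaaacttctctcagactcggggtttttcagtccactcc

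A few members made up most of the signal. Malat1 held 32% of all member counts, Xist 16.8% and Neat1 7.29%, together 56.1%, followed by 2900097C17Rik (Norad, a cytoplasmic decoy of Pumilio proteins) with 6.12%, AU020206 with 4.12% and Gm26917 with 3.46%. The mean count was 1000 or more for 15 members and under 200 for 36, and the median was 263.4. Per length, on the deposited FPKM scale (fragments per kilobase of gene and per library size), the 5 highest mean levels were those of Malat1 (294.1), Mir142hg (177.3), Mir155hg (105.8), Gm19951 (90.28) and AU020206 (82.93), and the median of the 86 was 5.452. The members lay on 20 chromosomes, had a median length of 3058.5 bases, and 17 overlapped a protein-coding gene in the deposited coordinates.

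Together the members took a larger share of the counts in the presence of DSF. They took 0.604%, 0.616%, 0.52% and 0.552% of the counts in the 4 unstimulated libraries, 0.523% to 0.581% under LPS and 0.516% to 0.675% under IL-4+anti-CD40. With DSF the range was 0.668% to 0.85% in LPS-stimulated cells and 0.707% to 0.777% in IL-4+anti-CD40-stimulated cells. Neither DSF range overlapped the range of its stimulus alone. Without Malat1, Xist, Neat1 and Gm26917 the share was 0.235% to 0.25% under LPS and 0.269% to 0.307% under LPS+DSF, and 0.227% to 0.277% under IL-4+anti-CD40 and 0.278% to 0.294% under IL-4+anti-CD40+DSF, where the ranges all but met. By mean CPM, 31 members were highest in LPS+DSF, 23 in unstimulated cells, 16 in IL-4+anti-CD40+DSF, 9 in IL-4+anti-CD40 and 7 in LPS. Conversely, 29 were lowest in unstimulated cells, 21 in IL-4+anti-CD40, 13 each in LPS and LPS+DSF, and 10 in IL-4+anti-CD40+DSF. These numbers are a description: they include the 10 members selected through their highest group, and none were taken over all genes. In bulk RNA, fewer cells of a type and less RNA per cell cannot be told apart.

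**Figure D1:**
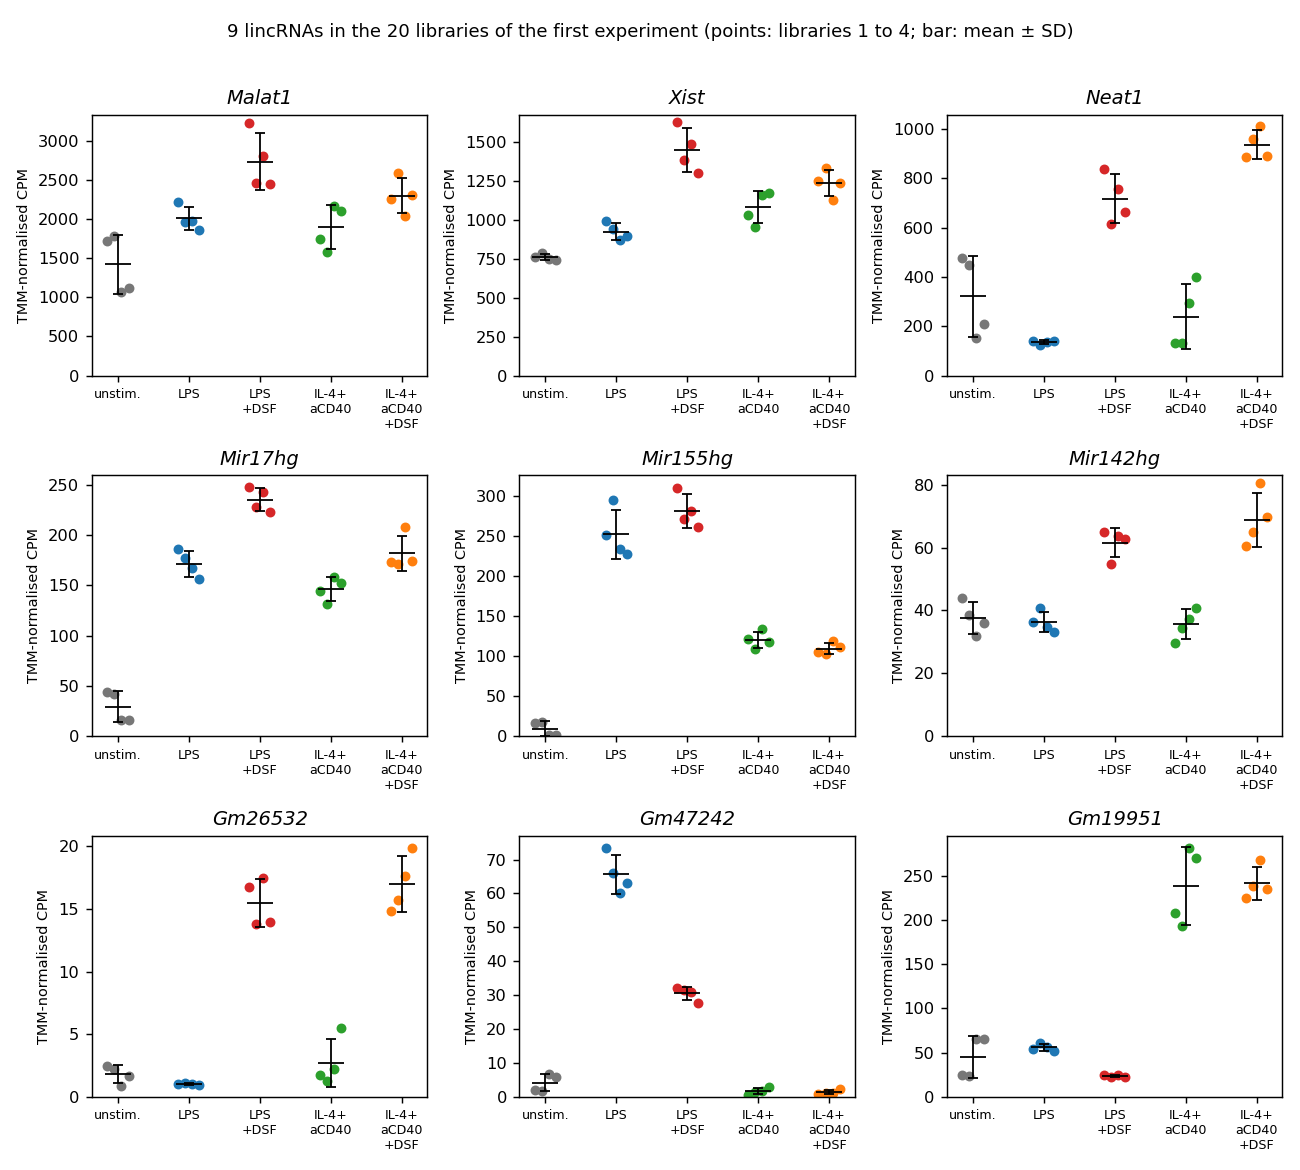
TMM-normalised CPM (y axis, from 0) of 9 lincRNAs in the 5 groups of the first experiment (x axis); points are the 4 libraries of a group and the bars give mean ± SD. Neat1, Gm26532 and Mir142hg stood higher in both DSF groups than with either stimulus alone, Gm47242 was high only in the LPS groups of these 5, and the unstimulated libraries split into pairs for Malat1, Neat1, Mir17hg, Mir155hg and Gm19951.

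The first question was which lincRNAs responded to a stimulus. Under LPS, 27 of the 86 were higher and 33 lower than in unstimulated cells at an adjusted p under 0.05 (edgeR's quasi-likelihood test, Benjamini-Hochberg adjustment over all genes tested), shares of 31.4% and 38.4% beside 29.6% higher and 33.3% lower among all genes. Under IL-4+anti-CD40, 25 were higher and 27 lower (29.1% and 31.4%), beside 30.4% and 32.1% of all genes. Both splits lay near the background, and the median log2 fold change of the members was -0.06 under LPS and -0.08 under IL-4+anti-CD40, against -0.046 and -0.041 for all genes. These comparisons share the unstimulated libraries. Against unstimulated replicates 1 and 2 alone LPS gave 35 higher and 35 lower, and against replicates 3 and 4 alone 35 and 38, with 27 and 29 called in the same direction against all 4 libraries and against each pair. For IL-4+anti-CD40 the counts were 23 and 29 against the first pair and 30 and 33 against the second, with 21 and 24 in common. When libraries were scaled by total counts, LPS gave 21 higher and 40 lower, and that scaling moved the median log2 fold change of all genes by -0.27.

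**Figure D2:**
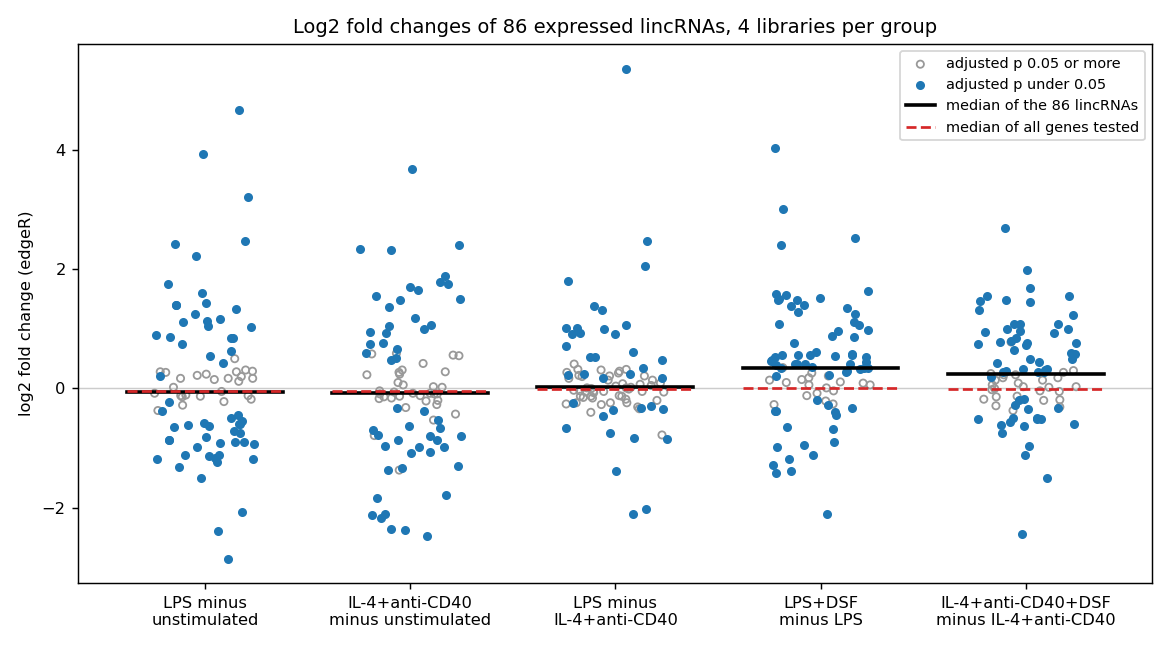
Log2 fold changes from edgeR (y axis) of the 86 lincRNAs in 5 comparisons of the first experiment (x axis), 4 libraries per group; filled points have an adjusted p under 0.05, the solid line is the members' median and the dashed line that of all genes tested. The members' median lay at 0.35 and 0.24 in the DSF comparisons, above the all-gene medians of 0.002 and -0.015, and beside them in the comparisons of stimuli.

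The microRNA hosts Mir155hg and Mir17hg were among the members that rose most with both stimuli. Mir155hg measured 15.8, 18.2, 1.72 and 1.93 CPM in the unstimulated libraries, 251, 295, 233 and 227 CPM under LPS, and 121, 108, 133 and 118 CPM under IL-4+anti-CD40. The groups did not overlap, and the unstimulated libraries fell into a higher and a lower pair. Its log2 fold change was 4.68 ± 0.74 (SE, n = 4 and 4, 25.6-fold, edgeR adjusted p = 0.000589) under LPS, and 3.84 against the first unstimulated pair and 7.05 against the second. Under IL-4+anti-CD40 it was 3.68 ± 0.70 (edgeR adjusted p = 0.00156), and 2.81 and 6.03 against the pairs. LPS exceeded IL-4+anti-CD40 by 1.06 ± 0.09 on the log2 scale (edgeR adjusted p = 1.7e-06).

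Mir17hg, the host of the miR-17-92 cluster, measured 44.0, 41.8, 15.9 and 16 CPM in unstimulated cells, 186, 178, 167 and 156 CPM under LPS, and 144, 131, 158 and 152 CPM under IL-4+anti-CD40. It rose by a log2 fold change of 2.48 ± 0.34 under LPS (edgeR adjusted p = 0.00027) and 2.32 ± 0.34 under IL-4+anti-CD40 (edgeR adjusted p = 0.000322). Against the unstimulated pairs the values were 1.95 and 3.37 under LPS, and 1.76 and 3.2 under IL-4+anti-CD40, so the size but not the direction rested on which pair was taken. Mir142hg, the host of miR-142, which blood cells make in large amounts, did not pass the test with either stimulus (log2 fold changes -0.12 and -0.08, edgeR adjusted p = 0.346 and 0.58), although its LPS value passed against the first unstimulated pair (-0.23, edgeR adjusted p = 0.0104, and 0.04 against the second). E130102H24Rik, the host of miR-101a, was 4.34, 4.12, 4.31 and 3.02 CPM unstimulated, 10.4, 9, 8.17 and 8.97 CPM under LPS, and 1.71, 1.09, 2.67 and 3.27 CPM under IL-4+anti-CD40. It rose under LPS (log2 fold change 1.14, edgeR adjusted p = 0.000158) and its IL-4+anti-CD40 value was -0.86 (edgeR adjusted p = 0.0354, with overlapping groups, and 0.0936 against the second unstimulated pair alone). Ftx, which lies beside Xist and helps its activation, fell with both stimuli, by 1.23 and 0.99 on the log2 scale (edgeR adjusted p = 0.00031 and 0.000668). Its values against the unstimulated pairs were -0.91 and -1.46 under LPS, and -0.7 and -1.23 under IL-4+anti-CD40.

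Several members separated the stimuli. In the direct comparison 24 members were higher under LPS and 13 higher under IL-4+anti-CD40 (27.9% and 15.1%, beside 22.3% and 17.3% of all genes), and scaling by total counts turned this split to 18 and 27. Without LPS replicate 4 the second count was 8. Gm47242 measured 73.4, 66.2, 60.1 and 63 CPM under LPS and 0.57, 1.48, 1.61 and 2.73 CPM under IL-4+anti-CD40, a log2 difference of 5.37 ± 0.24 (41.3-fold, edgeR adjusted p = 7.59e-09), and 2.08, 1.73, 6.75 and 5.78 CPM without a stimulus. 9330175E14Rik measured 38.9, 39.7, 35.4 and 37.4 CPM under LPS against 4.42, 4.8, 7.31 and 10.8 CPM under IL-4+anti-CD40 (log2 difference 2.47, edgeR adjusted p = 2.31e-06). Both were well above every library of the other stimulus. Gdap10, which overlaps the NAD synthesis gene Nampt on the same strand, was highest under LPS as well: 6.45, 6.63, 4.11 and 3.54 CPM unstimulated, 56.8, 50.8, 46.1 and 48.5 CPM under LPS and 16.5, 14.9, 21.8 and 23.8 CPM under IL-4+anti-CD40. It rose under LPS by a log2 fold change of 3.22 ± 0.19 (edgeR adjusted p = 2.94e-06) and under IL-4+anti-CD40 by 1.89 ± 0.23 (edgeR adjusted p = 0.000126). Its values against the unstimulated pairs were 2.9 and 3.66 under LPS, and 1.55 and 2.32 under IL-4+anti-CD40. E130102H24Rik (log2 difference 2.06) and Gm17552 (1.81) followed among the members higher under LPS.

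Gm19951 was the clearest member on the IL-4+anti-CD40 side. It measured 24.9, 22.9, 65.4 and 65.4 CPM unstimulated, 54.2, 60.6, 56.8 and 51.7 CPM under LPS, and 208, 194, 282 and 271 CPM under IL-4+anti-CD40. Its rise under IL-4+anti-CD40 was 2.4 ± 0.38 (log2, edgeR adjusted p = 0.000558), with 3.31 and 1.86 against the unstimulated pairs, and it exceeded the LPS level by 4.31-fold (log2 difference, LPS minus IL-4+anti-CD40, -2.11 ± 0.12, edgeR adjusted p = 5.24e-08). Under LPS the call turned on the unstimulated pair: the log2 fold change was 0.24 against all 4 libraries (edgeR adjusted p = 0.575), 1.18 against replicates 1 and 2 and -0.29 against replicates 3 and 4. Gm10076, BC002059, 2310001H17Rik and Mirt1 also passed the threshold in opposite directions against the pairs under LPS, and 4833407H14Rik under IL-4+anti-CD40. In the second experiment, with 1 library per condition, Gm19951 stood at 6.98 CPM unstimulated, 29.65 CPM under LPS and 74.3 CPM under IL-4+anti-CD40. There it was higher under LPS than unstimulated, and the stimuli differed less than in the first experiment. Gm39321 (-2.02) and Gm26532 (-1.39) followed Gm19951 among the members higher under IL-4+anti-CD40. AI504432, which lies beside the potassium channel gene Kcna3, stood at 94.4 to 106 CPM under LPS and 37.5 to 42.8 CPM under IL-4+anti-CD40 (log2 difference 1.32, edgeR adjusted p = 1.57e-08).

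Members that rose with both stimuli included 2700038G22Rik and Pvt1. 2700038G22Rik, whose body overlaps the small nucleolar RNA gene Snord93, rose from 4.11 to 5.19 CPM unstimulated to 19.6 to 24.8 CPM under LPS and 16.7 to 29.3 CPM under IL-4+anti-CD40 (log2 fold changes 2.23 and 2.34, edgeR adjusted p = 2e-06 and 1.66e-05). Pvt1, a transcript beside the growth regulator Myc, measured 6.38, 6.36, 5.23 and 5.03 CPM unstimulated, 15.3, 16.9, 16.1 and 15.4 CPM under LPS, and 17.5, 16.3, 16.1 and 15.4 CPM under IL-4+anti-CD40. Its log2 fold changes were 1.4 ± 0.11 and 1.51 ± 0.12 (edgeR adjusted p = 9.12e-06 and 1.15e-05), and the stimuli did not differ detectably (difference -0.05 ± 0.08).

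The falls were led by other members. F730311O21Rik measured 38.1, 37.2, 48 and 53.5 CPM unstimulated, 8.45 to 9.14 CPM under LPS and 5.23 to 11.9 CPM under IL-4+anti-CD40, and fell by 2.39 ± 0.14 and 2.47 ± 0.26 on the log2 scale (edgeR adjusted p = 2.86e-06 and 5.75e-05). Gm15675, beside the complement regulator gene Cd55, measured 66.6, 66.8, 58.1 and 60.3 CPM unstimulated, 20.8 to 25.1 CPM under LPS and 6.57 to 16.3 CPM under IL-4+anti-CD40 (log2 fold changes -1.51 and -2.37, edgeR adjusted p = 1.08e-06 and 4.34e-05). Dubr, 12.2 to 15.4 CPM unstimulated, fell by 1.19 under LPS and 2.12 under IL-4+anti-CD40 (edgeR adjusted p = 5.04e-05 and 2.21e-05). No library of these groups overlapped the unstimulated ones for these members. Gm39321 measured 2.68, 2.31, 9.14 and 9.94 CPM unstimulated and 0.399, 0.86, 0.872 and 1.4 CPM under LPS, a fall by 2.86 ± 0.60 (edgeR adjusted p = 0.00304), with -1.57 and -3.51 against the unstimulated pairs. AW112010, which is known to encode a small protein induced in inflamed immune cells, measured 7.13, 9.09, 18.4 and 21.8 CPM unstimulated and 2.73 to 3.71 CPM under IL-4+anti-CD40, a log2 fold change of -2.1 ± 0.37, with -1.29 and -2.6 against the unstimulated pairs. Its unstimulated level was what selected it. Gm26917, a model that lies over ribosomal RNA repeats and is read here as a sign of rRNA carry-over, measured 196, 184, 777 and 794 CPM unstimulated and 102 to 134 CPM with either stimulus. Its log2 fold changes of -2.07 and -2.18 (edgeR adjusted p = 0.00664 and 0.00451) turned on the unstimulated libraries: the value was -0.67 against the first pair and -2.73 against the second under LPS, and -0.81 and -2.85 under IL-4+anti-CD40.

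The 3 members with the most counts, Malat1, Xist and Neat1, did not respond alike to the stimuli. Malat1 measured 1718, 1785, 1070 and 1119 CPM unstimulated, 2223, 1968, 1983 and 1861 CPM under LPS, and 1752, 1579, 2164 and 2103 CPM under IL-4+anti-CD40. Its log2 fold change was 0.43 ± 0.17 under LPS (edgeR adjusted p = 0.0475), a call that 9 of the alternative settings did not give, and 0.42 ± 0.18 under IL-4+anti-CD40 (edgeR adjusted p = 0.0708). Against the unstimulated pairs it was 0.15 and 0.82 under LPS, and 0.11 (edgeR adjusted p = 0.471) and 0.79 (edgeR adjusted p = 0.000459) under IL-4+anti-CD40. Xist measured 740 to 785 CPM unstimulated, 991, 937, 867 and 896 CPM under LPS, and 1031, 955, 1159 and 1170 CPM under IL-4+anti-CD40. It rose by 0.21 ± 0.06 and 0.51 ± 0.08 on the log2 scale (edgeR adjusted p = 0.0176 and 0.000609). Neat1 measured 476, 447, 153 and 210 CPM unstimulated, 140, 123, 136 and 141 CPM under LPS, and 131, 132, 293 and 399 CPM under IL-4+anti-CD40. It fell under LPS by 1.31 ± 0.33 (edgeR adjusted p = 0.00709), with -1.82 and -0.49 against the unstimulated pairs, and under IL-4+anti-CD40 the value was -0.43 ± 0.45 (edgeR adjusted p = 0.433), with -0.96 and 0.39 against the pairs.

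The second question was how DSF changed these RNAs. In LPS-stimulated cells DSF raised 50 of the 86 members and lowered 18 (58.1% and 20.9%), beside 35.1% raised and 36% lowered among all genes, and in IL-4+anti-CD40-stimulated cells it raised 40 and lowered 19 (46.5% and 22.1%), beside 30.1% and 31.6%. The members' median log2 fold change was 0.35 and 0.24, against 0.002 and -0.015 for all genes. Changes of 2-fold or more among these calls numbered 19 up and 6 down under LPS, and 14 up and 3 down under IL-4+anti-CD40. Under scaling by total counts the calls were 36 up and 25 down under LPS and 30 up and 25 down under IL-4+anti-CD40, with the all-gene median moved by -0.21 and -0.16. With all 20 libraries in one fit they were 39 and 15, and 35 and 11. Over the 76 members that did not need their highest group they were 44 and 16, and 34 and 17. No all-gene share was taken for changes of 2-fold or more, for scaling by total counts or for the single fit.

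The summed levels of cell type markers moved with DSF as well. B cell markers went from 5480 to 5620 CPM under LPS to 3600 to 3860 CPM under LPS+DSF, and from 7010 to 8740 CPM to 4640 to 4840 CPM under IL-4+anti-CD40, with 0 of 9 raised and 8 lowered, and 2 raised and 6 lowered (edgeR). T cell markers went from 5.34 to 6.14 CPM to 9.49 to 11.6 CPM under LPS and from 4.47 to 6.69 CPM to 9.36 to 9.99 CPM under IL-4+anti-CD40. Of 3 T cell markers tested under LPS 1 was raised and 2 were lowered, and of 2 tested under IL-4+anti-CD40 1 was raised and 0 lowered. The T cell sums thus do not speak for the whole list. Myeloid markers went from 722 to 764 CPM down to 487 to 506 CPM under LPS but from 345 to 387 CPM up to 412 to 515 CPM under IL-4+anti-CD40. Of 8 tested under LPS 3 were raised and 3 lowered, and of 7 tested under IL-4+anti-CD40 4 were raised and 0 lowered. Neutrophil markers went from 9.23 to 10.7 CPM to 11.1 to 13.3 CPM and from 6.58 to 9.18 CPM to 9.68 to 12 CPM, and plasma cell markers from 1880 to 1920 CPM to 2100 to 2280 CPM and from 1430 to 1490 CPM to 1560 to 1630 CPM. Neutrophil calls were 2 raised and 0 lowered of 3 tested, and 2 and 0 of 4. Plasma cell calls were 4 raised and 1 lowered of 5 tested, and 2 and 0 of 5. The part of these shifts in the DSF results was not tested.

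The largest fold changes with DSF included those of Neat1 and Gm26532. Neat1 measured 837, 614, 758 and 665 CPM under LPS+DSF and 885, 960, 1013 and 893 CPM under IL-4+anti-CD40+DSF, above every library without DSF. The DSF effect was 2.53 ± 0.08 under LPS (5.78-fold, edgeR adjusted p = 9.73e-20) and 1.98 ± 0.31 under IL-4+anti-CD40 (3.95-fold, edgeR adjusted p = 0.000193). The IL-4+anti-CD40 libraries themselves stood at 131, 132, 293 and 399 CPM, so the size of the latter effect rested on the pair taken. Gm26532, whose annotated start lies just downstream of the miR-23a, miR-27a and miR-24-2 genes on the same strand, measured 0.998, 1.09, 1.03 and 0.932 CPM under LPS and 16.8, 13.8, 17.4 and 13.9 CPM under LPS+DSF. In IL-4+anti-CD40-stimulated cells it went from 1.71, 1.28, 2.21 and 5.51 CPM to 14.8, 15.7, 17.6 and 19.9 CPM. Its log2 fold changes were 4.03 ± 0.15 (16.4-fold) and 2.7 ± 0.33, given as a description, since its level with DSF was what selected it. The annotated Mir23a gene itself, which is short and not a member, had 3, 1, 3 and 3 counts under LPS and 19, 22, 32 and 13 counts under LPS+DSF (log2 fold change 3.32). With the other stimulus it had 4, 3, 5 and 6 counts without DSF and 13, 25, 42 and 33 with it (2.58). Only its level with DSF took Mir23a past the filter on low counts, so these values are a description, with no p. They count reads of poly-A RNA and not the mature microRNA.

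The other microRNA hosts changed less with DSF. 6720427I07Rik, the let-7d host, went from 12, 11.1, 11.1 and 10.7 CPM to 30.4, 24.3, 31.8 and 29.2 CPM under LPS and from 6.23 to 12.6 CPM to 20.6 to 27 CPM under IL-4+anti-CD40 (log2 fold changes 1.48 and 1.46, edgeR adjusted p = 1.6e-13 and 3.86e-05). Mir142hg went from 33.1 to 40.8 CPM to 54.8 to 65.1 CPM under LPS, and from 29.8 to 40.9 CPM to 60.5 to 80.5 CPM under IL-4+anti-CD40 (0.87 and 0.96, edgeR adjusted p = 2.25e-11 and 1.74e-05). E130102H24Rik rose by 0.97 and 1.45 (edgeR adjusted p = 1.44e-09 and 0.000448). Mir17hg rose by 0.57 under LPS (223 to 248 CPM with DSF) and by 0.32 under IL-4+anti-CD40 (171 to 209 CPM with DSF). Mir155hg, the host induced most by the stimuli, changed little: 0.27 under LPS (edgeR adjusted p = 0.000712, groups overlapping) and -0.13 under IL-4+anti-CD40 (edgeR adjusted p = 0.133). Ftx had log2 fold changes of 0.21 and 0.31 (edgeR adjusted p = 0.0482 and 0.0094). Of the 4 microRNA processing genes listed, 0 rose and 3 fell with DSF in LPS-stimulated cells and 0 rose and 4 fell with the other stimulus, beside 36% and 31.6% of all genes that fell. Those that fell included Xpo5, the export receptor of precursor microRNAs (-0.90 and -0.96), Dicer1 (-0.55 and -0.59) and Drosha (-0.49 and -0.51). Under LPS alone 2 of the 4 rose and 1 fell, and under IL-4+anti-CD40 alone 3 rose, beside 29.6% and 30.4% of all genes that rose.

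Malat1 and Xist rose with DSF in LPS-stimulated cells. Malat1 measured 3225, 2463, 2803 and 2452 CPM under LPS+DSF and 2263, 2588, 2043 and 2313 CPM under IL-4+anti-CD40+DSF. Its log2 fold changes were 0.56 ± 0.07 (edgeR adjusted p = 1.42e-07) and 0.28 ± 0.10 (edgeR adjusted p = 0.0342, groups overlapping, not called under 10 alternative settings). Xist measured 1627, 1385, 1482 and 1297 CPM under LPS+DSF and 1249, 1330, 1128 and 1235 CPM under IL-4+anti-CD40+DSF, with log2 fold changes of 0.77 ± 0.06 and 0.20 ± 0.08 (edgeR adjusted p = 2.36e-11 and 0.0381, the latter with overlapping groups and not called under 9 settings). For Xist the DSF effects differed between the stimuli, by 0.56 ± 0.11 (edgeR adjusted p = 0.00141). In the second experiment, with 1 library per condition, both stood clearly higher with DSF under either stimulus. Malat1 went from 1296 to 3242 CPM under LPS and from 1333 to 3337 CPM under IL-4+anti-CD40. Xist went from 731.7 to 1759 CPM and from 819.9 to 1617 CPM.

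The genes whose products act on these nuclear RNAs did not all move alike. Their counts stand beside 35.1% raised and 36% lowered among all genes for DSF under LPS, 30.1% and 31.6% for DSF under IL-4+anti-CD40, 29.6% and 33.3% for LPS alone, and 30.4% and 32.1% for IL-4+anti-CD40 alone. Of 18 tested genes for nuclear RNA decay (exosome subunits and their helpers, which degrade unstable nuclear transcripts), DSF raised 2 and lowered 14 in LPS-stimulated cells and raised 1 and lowered 15 in IL-4+anti-CD40-stimulated cells, with medians of -0.57 and -0.60. The falls included Exosc4 (-0.99 and -0.80), Exosc7 (-0.93 and -0.87) and Mphosph6 (-1.32 and -0.84), whereas Zfc3h1, which links poly-A RNAs to the exosome, rose (1.04 and 0.51). LPS alone raised 11 of the 18 and lowered 2, and IL-4+anti-CD40 alone raised 13 and lowered 0. Of 7 Integrator subunits, which end the transcription of many short RNAs, DSF raised 2 and lowered 5 with each stimulus (medians -0.59 and -0.43), and each stimulus alone raised 3 and lowered 2. Of 15 paraspeckle proteins, the partners of Neat1, DSF raised 8 and lowered 5 under LPS and raised 6 and lowered 5 under IL-4+anti-CD40. Sfpq (0.43 and 0.25) was raised and Nono (-0.38 and -0.36) was lowered. The stimuli raised 9 and 10 of the 15 and lowered 2 each. All 11 tested nuclear speckle and Malat1 processing genes were raised by LPS and by IL-4+anti-CD40 (medians 0.8 and 0.83), and DSF raised 6 and lowered 4 under LPS and raised 3 and lowered 4 with the other stimulus. Of 10 Xist partners LPS raised 4 and lowered 2, IL-4+anti-CD40 raised 5 and lowered 1, and DSF raised 5 and lowered 2 under LPS and raised 3 and lowered 1 under IL-4+anti-CD40. Spen, the silencing factor that binds Xist, was among those raised (1.30 and 0.95, edgeR adjusted p = 3.86e-17 and 0.000842).

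Other members that stood higher with DSF started from low levels, and for Gm39321 and A930007I19Rik the level with DSF was what selected them, so no p is given. Gm39321 went from 0.399, 0.86, 0.872 and 1.4 CPM under LPS to 7.09, 5.75, 6.76 and 6.64 CPM under LPS+DSF (log2 fold change 3.02 ± 0.22), and under IL-4+anti-CD40 from 2.33, 2.09, 2.99 and 6.8 CPM to 11.9, 11.6, 11.3 and 10.2 CPM (1.69 ± 0.29). A930007I19Rik went from 3.09, 3.26, 1.52 and 3.03 CPM to 15.7, 12.7, 14 and 11.7 CPM under LPS (2.41), and its value under IL-4+anti-CD40 was 1.56. All DSF libraries lay above all libraries of the stimulus alone for both. Lncpint, a transcript known as a target of p53, went from 4.72 to 5.38 CPM to 9 to 15.8 CPM under LPS and from 2.19 to 5.73 CPM to 7.77 to 10.3 CPM under IL-4+anti-CD40 (1.49 and 1.31). Its raw counts were 43 to 119 in the libraries without DSF and 156 to 263 in those with it. The DSF groups together took it past the limit, so its values are a description, with no p. 2700038G22Rik, already raised by the stimuli, rose further to 54 to 68.7 CPM and 39.8 to 47.4 CPM (1.58 and 0.99). F730311O21Rik, lowered by the stimuli, rose to 21.6 to 27.5 CPM and 21.3 to 27.7 CPM, still below its unstimulated libraries (1.57 and 1.55). Each of these comparisons shares its stimulus libraries with the comparison against unstimulated cells.

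Fewer members fell with DSF. Gm26613 fell from 13.4, 16, 14.7 and 15.9 CPM to 3.6, 2.62, 3.13 and 3.46 CPM under LPS and from 21.3, 17.8, 20.2 and 14.5 CPM to 2.64, 4.38, 3.12 and 3.38 CPM under IL-4+anti-CD40. The fall was 2.11 ± 0.12 and 2.44 ± 0.17 on the log2 scale (edgeR adjusted p = 7e-14 and 1.28e-06). Gm32856 fell by 1.42 and 1.5 (edgeR adjusted p = 2.42e-10 and 5.86e-06) and 1300002E11Rik by 1.39 and 1.12 (edgeR adjusted p = 8.58e-11 and 1.68e-05). Tmem250-ps, 14.1 to 17 CPM under LPS and 5.71 to 7.19 CPM under LPS+DSF, fell by 1.19 and 0.97 (edgeR adjusted p = 3.72e-10 and 1.5e-05). None of these groups overlapped. Prr33 fell by 0.65 and 0.61 (edgeR adjusted p = 1.77e-07 and 0.000395), and Gm26617 by 0.68 and 0.74 (edgeR adjusted p = 0.000113 and 0.000961).

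The DSF comparisons under LPS and under IL-4+anti-CD40 share no library, so their calls could be overlapped. Of the members raised under LPS 36 were also raised under IL-4+anti-CD40, 72% of the first list and 90% of the second. Of those lowered 12 were shared, 66.7% and 63.2%, and 0 members moved in opposite directions at an adjusted p under 0.05 in both (edgeR). Among all genes tested in both, the genes in common made up 72.7% and 84.2% of the raised lists and 75.2% and 84.9% of the lowered lists, with 210 genes in opposite directions. The difference between the DSF effects passed the test for 15 members in the direction of a higher effect under LPS and 5 in the other (17.4% and 5.81%, beside 7.92% and 6.96% of all genes). Over the 76 members that did not need their highest group the count was 12 and 4. It depended on the libraries and the scaling: it was 7 and 8 under scaling by total counts, 4 and 3 with all 20 libraries in one fit, 9 and 10 with only replicates 1 and 2 of IL-4+anti-CD40, and 27 and 4 with only replicates 3 and 4. The first number was 8 or 9 when LPS replicate 2 or 4, LPS+DSF replicate 1 or 3, IL-4+anti-CD40 replicate 3 or IL-4+anti-CD40+DSF replicate 2 was left out, and the second was 8 without IL-4+anti-CD40 replicate 3 and 10 without replicate 4.

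**Figure D3:**
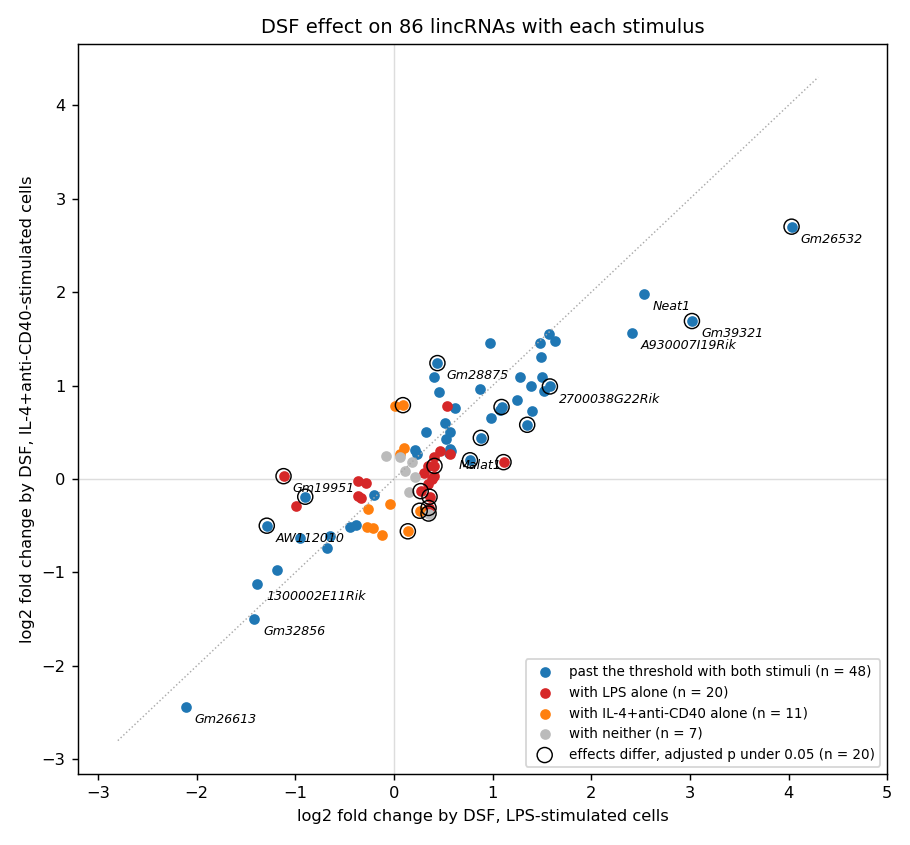
Log2 fold change by DSF in LPS-stimulated cells (x axis) and in IL-4+anti-CD40-stimulated cells (y axis), edgeR, for the 86 lincRNAs; colours mark the comparison in which a member passed the threshold, rings mark the 20 members whose effects differed, and the dotted line marks equal effects. The 48 members past the threshold with both stimuli lay in the upper right and lower left, with Gm26532 and Neat1 at one end and Gm26613 at the other.

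Gm19951 differed between the stimuli by -1.16 ± 0.14 (log2, LPS minus IL-4+anti-CD40, edgeR adjusted p = 1.19e-05). It fell under LPS+DSF to 24.6, 22.8, 25 and 22.4 CPM (log2 fold change -1.12, edgeR adjusted p = 7.81e-14), and in IL-4+anti-CD40+DSF it stood at 225, 239, 269 and 235 CPM (0.03, edgeR adjusted p = 0.851). AI504432 fell under LPS+DSF to 47.2 to 51.8 CPM (-0.90) and stood at 33.4 to 37.6 CPM under IL-4+anti-CD40+DSF (-0.19), a difference of -0.72 ± 0.08 (edgeR adjusted p = 7.61e-06). AW112010 fell by 1.29 under LPS and 0.50 under IL-4+anti-CD40, where it was already low (difference -0.79 ± 0.22, edgeR adjusted p = 0.0191). Gm28875 rose by 0.44 and 1.24 (difference -0.80 ± 0.13, edgeR adjusted p = 0.000307), to 18.7 to 20.1 CPM and 30.2 to 33.8 CPM. In the other direction Gm15706 rose by 1.35 and 0.58 (difference 0.76 ± 0.15, edgeR adjusted p = 0.00184). The difference of 2610037D02Rik (0.92) had an edgeR adjusted p = 0.0414 and was not called under 15 of the alternative settings, and those of Gm26532 (1.33) and Gm39321 (1.33) are given without a p. Gm47242, which LPS alone raised, fell under LPS+DSF to 32.1, 31.4, 30.8 and 27.5 CPM (-0.99 ± 0.07, edgeR adjusted p = 1.06e-12).

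Many members moved with the coding gene next to them, which was not used to choose them. Where a member and its nearest protein-coding gene both passed the threshold, they moved in the same direction in 29 of 33 pairs under LPS (87.9%), 26 of 29 under IL-4+anti-CD40 (89.7%), 17 of 21 between the stimuli (81%), 39 of 44 for DSF under LPS (88.6%) and 32 of 33 for DSF under IL-4+anti-CD40 (97%). For coding genes and their own nearest coding gene the shares were 61.9%, 62.5%, 76.4%, 63% and 63.5%. No test was made of these differences, and reads of overlapping members and genes may not be told apart, since the strand setting of the counting was not given in the sources used here.

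**Figure D4:**
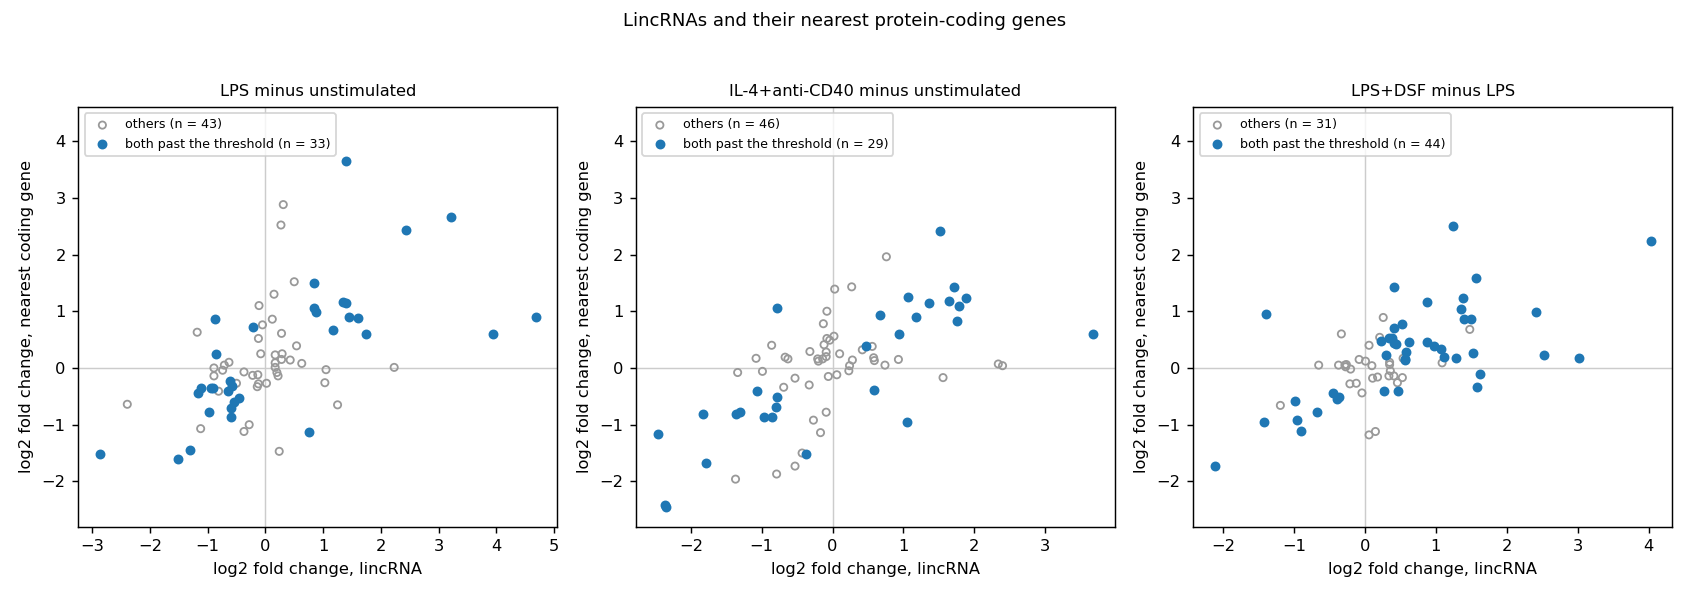
Log2 fold change (edgeR) of each lincRNA (x axis) and of its nearest protein-coding gene (y axis) in 3 comparisons of the first experiment; filled points are pairs in which both passed an adjusted p of 0.05. Most filled points lay in the upper right or lower left, 29 of 33, 26 of 29 and 39 of 44.

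Pairs that lay apart or overlapped both contributed. Pvt1 rose under LPS and IL-4+anti-CD40 (1.40 and 1.51) as Myc did (3.65 and 2.41). Gm15675 and Cd55 fell together (-1.51 and -1.60 under LPS, -2.37 and -2.41 under IL-4+anti-CD40). Gm26532 and the neighbouring gene Zswim4 both stood higher with DSF (log2 fold changes 4.03 and 2.24 under LPS, 2.70 and 1.44 under IL-4+anti-CD40). Among overlapping pairs, Gdap10 and Nampt rose under LPS (3.22 and 2.66), and 9330175E14Rik and Nlrc5, a regulator of MHC class I genes, on opposite strands, rose alike (2.43 and 2.44). Neat1 and Frmd8 both fell under LPS (-1.31 and -1.44) but differed in the size of the rise with DSF (2.53 and 0.22). 1300002E11Rik and the kinase gene Map3k13, which overlap, went opposite ways with DSF in LPS-stimulated cells (-1.39 and 0.96).

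In the second experiment each condition had a single library, so ratios are given without a test. DSF changed 27 of the 86 members up and 17 down by 2-fold or more under LPS, beside 20.3% and 19.5% of all genes, and 31 up and 12 down under IL-4+anti-CD40, beside 21.9% and 20.3%. The members' median log2 ratio was 0.36 and 0.43, against -0.04 and -0.008 for all genes. LPS against unstimulated gave 11 up and 11 down (8.62% and 9.88% of all genes), and IL-4+anti-CD40 against unstimulated 11 up and 12 down (10.7% and 13.7%). Of the members raised and lowered by DSF under LPS in the first experiment, 44 of 50 and 16 of 18 had a ratio in the same direction, beside 88.5% and 92% of all genes. For DSF under IL-4+anti-CD40 the numbers were 39 of 40 and 16 of 19 (92.6% and 94.5%), for LPS 20 of 27 and 31 of 33 (86.6% and 89.7%), and for IL-4+anti-CD40 24 of 25 and 26 of 27 (95.6% and 94.5%).

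Neat1 had 5192 counts unstimulated, 1820 under LPS, 1653 under IL-4+anti-CD40, 15841 under LPS+DSF, 19619 under IL-4+anti-CD40+DSF, 2417 under LPS+ibrutinib and 2356 under IL-4+anti-CD40+ibrutinib. It was high in both DSF libraries, with log2 ratios of 3.22 and 3.95, and the ibrutinib ratios were 0.02 and 0.01. Gm26532 had 69 and 25 counts with the stimuli, 783 and 711 with DSF, and 51 and 21 with ibrutinib, log2 ratios of 3.57 and 5.11 for DSF and -0.80 and -0.69 for ibrutinib. Mir142hg had ratios of 2.18 and 2.47 for DSF, and -0.23 and -0.14 for ibrutinib. Gm47242 and 9330175E14Rik did not repeat their rise under LPS: they had 220 and 296 counts unstimulated and 154 and 203 under LPS (log2 ratios -0.27 and -0.30). E130102H24Rik did not repeat its rise either, with 146 counts unstimulated, 52 under LPS and 57 under IL-4+anti-CD40. AW112010 did not repeat its fall with DSF under LPS: it stood at 6.107 CPM under LPS and 7.214 CPM under LPS+DSF. With the other stimulus it stood at 8.079 CPM without DSF and 5.18 CPM with it, so its larger fall under LPS did not repeat either. Gdap10 stood at 9.678 CPM unstimulated, 16.01 CPM under LPS and 14.25 CPM under IL-4+anti-CD40, and AI504432 at 41.54 and 34.72 CPM with the stimuli. The differences between the stimuli, and the rise of Gdap10 with each stimulus, were smaller than in the first experiment. Mir155hg rose again, with 168 counts unstimulated, 1868 under LPS and 1713 under IL-4+anti-CD40. At 102.8 CPM under LPS and 93.51 CPM under IL-4+anti-CD40, its difference between the stimuli was smaller than in the first experiment.

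Ibrutinib changed few members by 2-fold or more. Under LPS the numbers were 0 up and 1 down, beside 2.81% and 2.47% of all genes, and the members' ratios ranged from -1.15 to 0.88 with a median of 0.02. Under IL-4+anti-CD40 they were 2 up and 1 down, beside 2.23% and 1.69%, with a range of -1.67 to 1.3 and a median of 0.1. The member lowered under LPS was Pvt1 (230 counts under LPS, 134 with ibrutinib, 94 with DSF, log2 ratios -1.15 and -1.17). Under IL-4+anti-CD40 Pvt1 had 326, 252 and 137 counts (-0.86 for ibrutinib and -0.87 for DSF). In the first experiment Pvt1 differed less with DSF. It stood at 15.3 to 16.9 CPM under LPS and 12.7 to 15.7 CPM under LPS+DSF, with overlapping groups. The other stimulus gave 15.4 to 17.5 CPM without DSF and 11.65 to 14.9 CPM with it. The members past 2-fold under IL-4+anti-CD40+ibrutinib were Gm10076 (-1.67), 2610035D17Rik (1.30) and Gm15675 (1.23). DSF and ibrutinib ratios share the library of the stimulus alone.

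**Figure D5:**
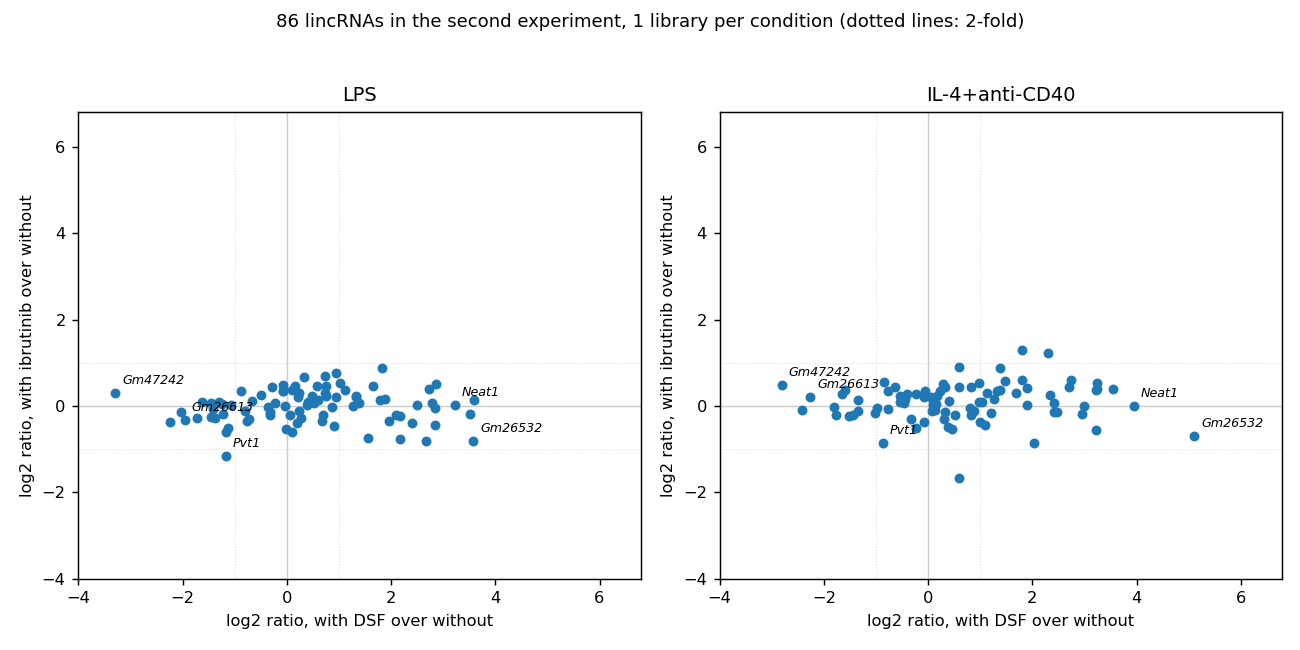
Log2 ratio of DSF over the stimulus alone (x axis) and of ibrutinib over the same library (y axis) for the 86 lincRNAs in the second experiment, 1 library per condition; dotted lines mark 2-fold. Points spread along the DSF axis, with Neat1 at 3.22 and 3.95, and stayed mostly inside the 2-fold lines on the ibrutinib axis, Pvt1 under LPS at -1.15 being outside.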

How the data were processed

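Per the labels and the study's methods, the authors trimmed reads with Fastp, mapped them with HISAT2 2.0.5 to mm10 and counted reads per gene with featureCounts 1.5.0-p3; the annotation release and the strand setting are not given in the sources used here. The deposited tables hold raw counts and FPKM for the 20 libraries of the first experiment and the 7 of the second; the authors calculated FPKM from gene length and counts, and FPKM is used here only to rank levels between genes.

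Differences were tested on the raw counts with edgeR 4.0.16 (R 4.3.3; filterByExpr, TMM, quasi-likelihood test, Benjamini-Hochberg over all genes, threshold 0.05), each fit using the 8 libraries of its 2 groups and the difference between DSF effects using the 16 stimulated libraries. CPM values were scaled over all 20 libraries and can differ slightly in ratio from the fitted fold changes. In the second experiment log2 ratios used genes whose mean count was 10 or more, TMM and a prior count of 2, with no test. The script was tested on simulated counts. Columns of the tables not mapped to a sample numbered 0. Total counts of 16049295 to 24619776 per library set the precision.

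Named members were those with a proper gene name, the 5 highest by FPKM, up to 4 per comparison and direction with the largest fold change and no overlap, up to 4 per direction for the difference between DSF effects, and up to 3 per direction and drug in the second experiment. The members, gene lists, markers and tests were chosen with earlier results of these data known. None of the 30 within-group pairs of libraries of the first experiment was a duplicate (chi-square per gene 2.86 to 90.7). Alternatives were DESeq2 1.42.0, DESeq2 size factors, total counts, no filter, all 20 libraries in one fit, a minimum fold, a replicate block, other count limits for members, leaving out each library, and, chosen after seeing the data, only part of the unstimulated or IL-4+anti-CD40 libraries and only members above the limit without their highest group. Sequences came from RefSeq tables (GRCm38.p6), matched by symbol.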

Additional observations from a re-analysis of the deposited data

Results flagged for a closer look

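In 13 of 230 groups of 4 libraries (46 named members in 5 groups) 1 library lay apart from the other 3 by more than Dixon's critical value for 4 samples, and chance flags about 1 in 20 groups. The libraries that stood high were Mir17hg in IL-4+anti-CD40+DSF replicate 3 (209 CPM against 171 to 174), Epb41l4aos in unstimulated replicate 4 (15.4 against 10.3 to 10.8) and LPS replicate 1 (16.2 against 14.2 to 14.5), Gm15675 in IL-4+anti-CD40+DSF replicate 3 (29.8 against 24.1 to 25.1) and Gm28875 in the same library (33.8 against 30.2 to 30.6). Also high were 1300002E11Rik (10.2 against 9.37 to 9.46) and 4632415L05Rik (12.6 against 11.8 to 11.9) in IL-4+anti-CD40 replicate 4, and Gm10076 in LPS replicate 3 (15.1 against 7.92 to 8.63). Low libraries were LPS+DSF replicate 4 for Fam120aos (5.43 against 6.92 to 7.03), unstimulated replicate 4 for E130102H24Rik (3.02 against 4.12 to 4.34), LPS replicate 3 for A930007I19Rik (1.53 against 3.03 to 3.26), IL-4+anti-CD40+DSF replicate 4 for AW112010 (1.98 against 2.44 to 2.49) and LPS+DSF replicate 3 for Gm15706 (10.6 against 13.7 to 14.1).

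For 15 named members the DSF effect differed between the stimuli in edgeR's test of the difference. As log2 values, LPS minus IL-4+anti-CD40, these were 1.33 for Gm26532, 1.33 for Gm39321, 0.92 for 2610037D02Rik, 0.76 for Gm15706, 0.72 for 4732487G21Rik, 0.65 for Gdap10, 0.58 for 2700038G22Rik, 0.56 for Xist, 0.43 for AU020206, 0.40 for Mir155hg, -1.16 for Gm19951, -0.80 for Gm28875, -0.79 for AW112010, -0.72 for AI504432 and -0.71 for Dubr. Gm26532 and Gm39321 were selected through their level in IL-4+anti-CD40+DSF, so their values are only a description.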

How the results depend on the processing

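Calls are given as members higher and lower, in the order LPS and IL-4+anti-CD40 against unstimulated, LPS against IL-4+anti-CD40, DSF under LPS, DSF under IL-4+anti-CD40, and the difference between the DSF effects. A minimum log2 fold change of 1 in the test left 8 and 3, 10 and 7, 6 and 1, 15 and 3, 2 and 2, and 0 and 0. Selecting members on a mean of at least 200 counts gave 18 and 17, 16 and 16, 18 and 7, 32 and 10, 27 and 10, and 9 and 3, and a mean of at least 50 gave 39 and 48, 35 and 45, 41 and 17, 68 and 28, 60 and 29, and 16 and 8; these limits change how many members there are. Scaling by total counts gave 27 lower between the stimuli and 7 and 8 for the difference. All 20 libraries in one fit gave 11 lower for DSF under IL-4+anti-CD40 and 4 and 3 for the difference, and no filter gave 8 lower for the difference. Using only replicates 1 and 2 of IL-4+anti-CD40 the difference had 9 and 10, and with replicates 3 and 4 only 27 higher. Leaving out 1 library at a time gave 21 to 29 and 30 to 32, 23 to 28 and 24 to 28, 20 to 28 and 8 to 15, 48 to 51 and 16 to 20, 36 to 41 and 15 to 18, and 8 to 17 and 4 to 10. In the second experiment members with a mean of at least 200 gave 6 and 6 under LPS, 7 and 6 under IL-4+anti-CD40, 14 and 10 for DSF under LPS and 16 and 6 for DSF under IL-4+anti-CD40, and those with a mean of at least 50 gave 17 higher under IL-4+anti-CD40, 43 and 27, 50 and 20 for DSF, and 4 and 2 for ibrutinib under LPS. Except where the construction shows it (a stricter test, fewer libraries, more or fewer members), the cause was not tested. None of the members with the largest changes in each comparison turned direction under these settings, the minimum fold change aside.

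Same-numbered libraries of different groups had deviations correlated at -0.091 to 0.334 over 40 pairs, against -0.355 to 0.281 over 120 pairs with different numbers. Between IL-4+anti-CD40 and IL-4+anti-CD40+DSF the values were 0.334, -0.006, 0.003 and 0.31 for replicates 1 to 4. Whether replicate numbers pair the libraries is not given in the labels. With a replicate block the calls were 26 and 31, 25 and 27, 21 and 10, 52 and 18, 38 and 17, and 11 and 7. Over the 76 members that did not need their highest group, a choice made after seeing the data, the calls were 25 and 26, 23 and 24, 23 and 9, 44 and 16, 34 and 17, and 12 and 4. Of the alternative values of the members with the largest changes in each comparison 507 kept the call and 19 lost it, where leaving out a library entered only by its lowest and highest value and the minimum fold change was not applied. Counting each left-out library as a setting, 9 settings ended the call of Malat1 under LPS, 10 that of Malat1 and 9 that of Xist for DSF under IL-4+anti-CD40, and 11 that of Neat1 between the stimuli. Of the counts of members, 174 stayed within 1.5 times the reported one and 54 did not. Low counts limit members such as Gm39321 and Gm26532, with about 1 CPM in LPS libraries.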

Other observations

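Among the hosts of microRNAs, the annotated rows of the microRNA genes themselves held few counts. Mirlet7a-1, beside 6720427I07Rik, had 0 counts in all 4 unstimulated libraries, 5 counts in all under LPS, 46 under LPS+DSF, 17 under IL-4+anti-CD40 and 35 under IL-4+anti-CD40+DSF. Mir27a, beside Gm26532, had 4 counts unstimulated, 1 under LPS, 43 under LPS+DSF, 7 under IL-4+anti-CD40 and 59 under IL-4+anti-CD40+DSF. The difference of the DSF effects between the stimuli did not pass edgeR's test for either (adjusted p = 0.0913 and 0.295). Mir17, Mir155 and Mir142 were at 0 in all 20 libraries.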
